A study of Rattus norvegicus with 3 samples.

Results

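The genes described here encode the interleukin 6 (IL-6) signalling axis, from the ligands Il6 and Lif through the receptors Il6r, Osmr and Il6st and the transcription factor Stat3 to the inhibitors Socs1, Socs2, Socs3 and Cish. They were chosen by name, as the genes whose probe set carried one of these symbols as its single gene symbol in the annotation of the array, and all 10 of the 10 were measured among 15037 genes in total. Each was read by 1 probe set.

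Total RNA was hybridized to 3 Clariom S rat arrays, 1 each for the control group and for groups of rats given thallium (Tl) 2 and 5 days earlier. The rats were male Wistar rats 7 weeks of age. Per the methods of the study, the control rats received double distilled water and the Tl groups received thallium sulfate, both intraperitoneally, and the kidneys were taken 2 or 5 days later, times called 2 days and 5 days in what follows. The methods also state that 2 rats died before 5 days and were counted in the 5 days group. Whether the 5 days array held RNA of these rats was not stated. The labels disagree on the treatment and the tissue, with daily doses of 30 mg/kg in the design text but 40 mg/kg in the treatment label, and spleen as the source of samples titled kidney. The study's figure legends give a single dose instead. Whether an array held RNA of 1 rat or of several was not stated, so rat-to-rat variation is unknown and none of the differences could be tested. A value is a log2 signal, a difference of 1 is a 2-fold difference, and a gene is called higher or lower here when it differed by more than 2-fold. All 14 listed marker genes of the proximal tubule had log2 signals from 12.08 to 18.82 on the control array, whereas all 5 measured B cell markers and 8 of 9 T cell markers lay below 6.83 on every array. That value of 6.83 was the 95th percentile of 63 ERCC probe sets (probe sets for synthetic spike-in RNAs) on the control array, and it is called the ERCC limit in what follows. A signal below it is called dim, as was that of 49.4% of all genes on the control array. Since it was taken from the control array alone, the ERCC limit is a fixed level and not a background measured on each array. On the control array, the median of the probe sets named as negative controls was 6.56 and the highest ERCC value was 9.28. A signal somewhat above the ERCC limit is thus still within the range of control probe sets.

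IL-6 family cytokines signal through the shared receptor chain gp130, the product of Il6st. The ligand pairs gp130 with a second chain, such as the IL-6 receptor for IL-6, the LIF receptor for LIF or the oncostatin M receptor for oncostatin M. The Janus kinases bound to the receptors then phosphorylate STAT3, which enters the nucleus and activates genes that include the one for its own feedback inhibitor, SOCS3. In the injured kidney, this pathway is known for its role in tubular cell survival, acute phase genes and inflammation.

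At 2 days, 5 of the 10 genes exceeded the control value by more than 2-fold, against 6.03% of all genes, and 0 were over 2-fold lower, against 4.65%. The 5 were Lif, Socs3, Osmr, Stat3 and Il6st. At 5 days, Lif, Socs3, Osmr and Stat3 were over 2-fold higher, which is 4 of 10 against 5.37% of all genes, and 0 were over 2-fold lower, against 4.87%. The median log2 difference from control of the 10 genes was 1.11 at 2 days and 0.71 at 5 days, while that of all genes was 0.00 at both times. Both comparisons used the same control array, so they are not independent. The 10 genes were chosen with earlier results of these data known. The shares of all genes are thus not an independent standard for their counts, here and in what follows. Among 1153 probe sets named as negative controls, the shares past 2-fold at 2 days were 8.33% upwards and 11.6% downwards. At 5 days these shares were 10.9% and 7.89%, so differences past 2-fold between single arrays also occurred in this control class.

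**Figure D1:**
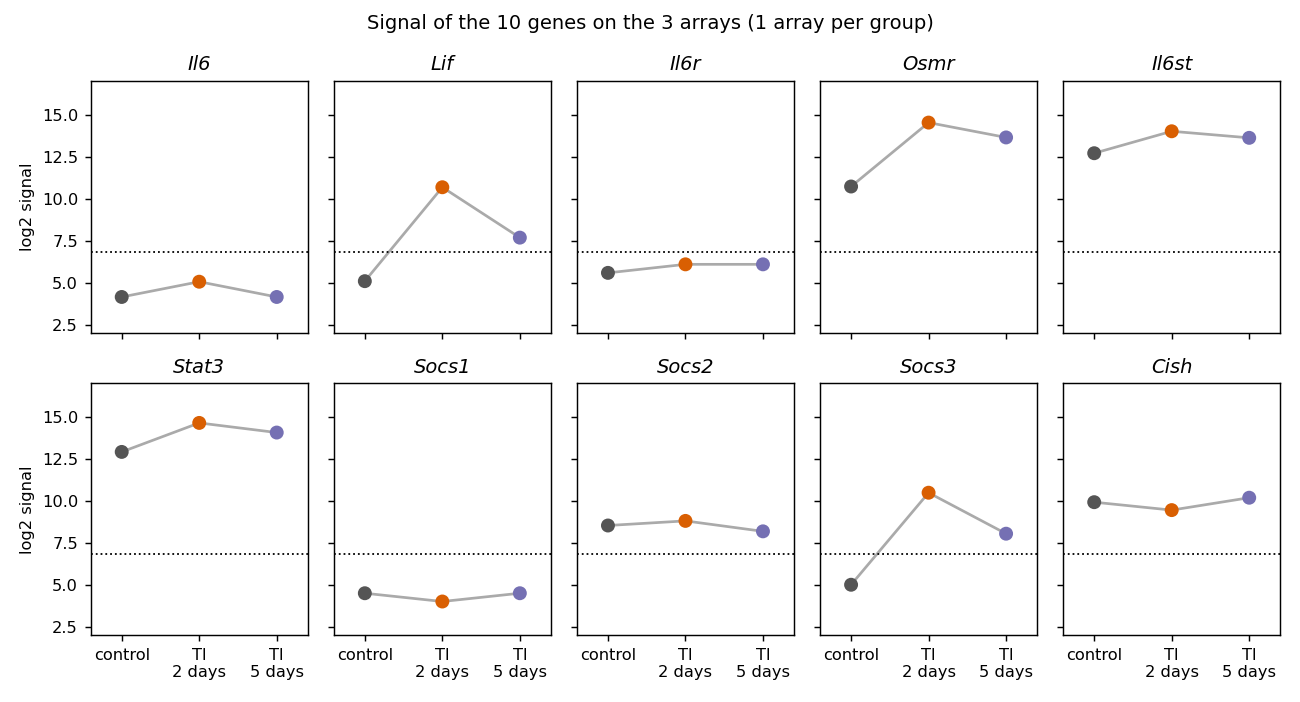
Log2 signal of each of the 10 genes on the control, Tl 2 days and Tl 5 days arrays, 1 point per array, with the dotted line at the ERCC limit of 6.83. Lif and Socs3 go from below the line in the control group to 10.68 and 10.49 at 2 days, whereas Il6, Il6r and Socs1 lie below the line on all arrays.

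Of the ligands, Lif had the larger difference. Lif, a cytokine that acts through the LIF receptor and gp130, had log2 signals of 5.09 in the control group, 10.68 at 2 days and 7.68 at 5 days. It was dim in the control group and above the ERCC limit in both Tl groups. At 5 days it was below the highest ERCC value of 9.28. Relative to the control value, it was 48.1-fold higher at 2 days and 6.02-fold higher at 5 days. By the first of these differences it ranked 11 from the highest among all 15037 genes, and by the second it ranked 97. Measured from the ERCC limit instead of the dim control value, Lif was 14.4-fold higher at 2 days and 1.81-fold higher at 5 days, so with that floor it no longer passed the 2-fold limit at the later time.

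Il6, whose product gave the family its name, had log2 signals of 4.15 in the control group, 5.06 at 2 days and 4.15 at 5 days. All 3 values were dim, and those of control and 5 days were equal to the last digit. Exactly equal values also occurred for 29.7% of the genes that were dim on both of these arrays. The difference of 0.91 at 2 days was short of the 2-fold limit. With both values dim, it could not be told from no change. Il6 did not leave the dim range in either Tl group, whereas Lif, also dim in the control group, did.

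Of 11 listed ligands of the gp130 family, 8 were measured. In each Tl group 2 of them were over 2-fold higher and 0 were lower, with median log2 differences of 0.68 and 0.00 in the Tl 2 days and Tl 5 days groups. Of all genes, 6.03% were over 2-fold higher and 4.65% lower at 2 days, and 5.37% and 4.87% at 5 days. The same shares apply to the counts of the lists that follow. This list and those that follow were chosen with earlier results of these data known, so the shares are not an independent standard. Besides Lif, the ligand past the limit was Il11 at 2 days, at 1.23 from a control value of 3.60 to a still dim 4.83. At 5 days it was Cntf, at 1.12 from a dim control value of 6.33 to 7.45, or 0.62 from the ERCC limit. With dim values raised to the ERCC limit, 1 of the 8 ligands was over 2-fold higher at 2 days and 0 at 5 days. Osm, the gene next to Lif on chromosome 14 with no protein-coding gene between them, had log2 signals of 3.37, 4.10 and 3.33 on the control, Tl 2 days and Tl 5 days arrays. These Osm signals were all dim. Ctf1 was the one measured ligand above the ERCC limit on the control array, at 9.71, and its differences were 0.00 and -0.18.

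Of the receptors, Osmr stood highest by its difference from control. Osmr, the chain that pairs with gp130 to bind oncostatin M, had log2 signals of 10.72 in the control group, 14.53 at 2 days and 13.64 at 5 days. Both Tl values were above the control value, and all 3 were well above the ERCC limit. On the log2 scale it differed by 3.80 and 2.92, or 14.0-fold and 7.57-fold. They ranked 51 and 71 from the highest among all genes.

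Il6st, which encodes gp130, had log2 signals of 12.70 in the control group, 14.01 at 2 days and 13.62 at 5 days. It was 2.47-fold higher at 2 days and, at 1.89-fold at 5 days, just short of the limit. Il6r, the chain that binds IL-6 itself, had log2 signals of 5.58 in the control group and 6.09 in each Tl group. The values of the Tl groups were equal to the last digit, and all 3 were dim. The difference of 0.51 was within the 2-fold limit.

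Of 8 listed receptor genes of the gp130 family, 7 were measured. At 2 days 3 were over 2-fold higher and 1 was lower, and at 5 days 1 was higher and 1 was lower. The median log2 difference was 0.51 at both times. The receptor over 2-fold lower at both times was Lifr, which encodes the LIF receptor, the chain that LIF needs besides gp130. It had log2 signals of 16.52 in the control group, 15.21 at 2 days and 14.78 at 5 days, and its differences were -1.31 and -1.74. Lifr and Osmr lie side by side on chromosome 2, with 0 protein-coding genes between them, and their differences had opposite signs at both times. Il31ra, the neighbour of Il6st on the same chromosome, differed by 1.04 and 0.82, with all 3 of its values dim. Adam10 and Adam17, proteases that release the IL-6 receptor from the cell surface, differed from control by at most 0.15 in either direction.

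Stat3 had log2 signals of 12.92 in the control group, 14.65 at 2 days and 14.07 at 5 days. The control array gave the lowest of the 3 values. Stat3 was 3.31-fold and 2.22-fold higher in the Tl groups, with log2 differences of 1.73 and 1.15. These ranked 348 and 640 from the highest among all genes. Among 6 measured STAT genes, Stat3 was the one over 2-fold higher at 2 days. At 5 days Stat6, which acts downstream of interleukin 4, also passed the limit, at 1.07. The median log2 differences of the STAT genes were 0.28 and -0.08. Stat5a and Stat5b, the next genes after Stat3 on chromosome 10, differed by -0.32 and -0.04 at 2 days and by -0.31 and 0.00 at 5 days. The 4 Janus kinase genes Jak1, Jak2, Jak3 and Tyk2 differed from control by 0.00 to 0.39 at either time, and 0 of them passed the limit.

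**Figure D2:**
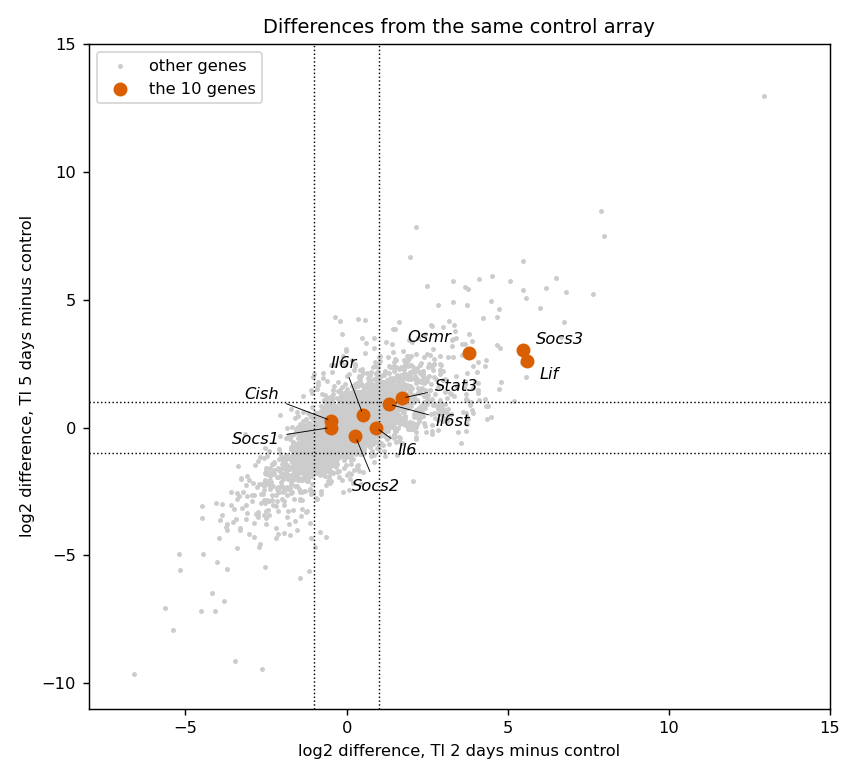
Log2 difference from control of each gene at 2 days (horizontal axis) and at 5 days (vertical axis), with the 10 genes in orange, all other genes in grey and dotted lines at 2-fold. Both axes use the same control array, so any error of that array moves points along the diagonal. Lif, Socs3 and Osmr lie far from the other 7 genes, at 3.80 or more on the horizontal axis.

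Socs3 had the largest difference among the inhibitors at both times. Socs3, whose product binds gp130 and blocks the Janus kinases, had log2 signals of 5.01 in the control group, 10.49 at 2 days and 8.05 at 5 days. Like Lif, it was dim in the control group and above the ERCC limit in both Tl groups, and at 5 days below the highest ERCC value of 9.28. It was 44.5-fold higher at 2 days and 8.22-fold higher at 5 days, and it ranked 15 and 66 from the highest among all genes. Measured from the ERCC limit, it was 12.7-fold and 2.34-fold higher.

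The other Socs genes did not share this difference. Socs1, which inhibits signalling by interferons and other cytokines, had log2 signals of 4.51, 4.02 and 4.51 on the control, Tl 2 days and Tl 5 days arrays. All of these Socs1 values were dim, and the control and Tl 5 days values were equal to the last digit. Socs2, a regulator of growth hormone signalling, had log2 signals of 8.54, 8.82 and 8.19, above the ERCC limit on every array. Its differences of 0.27 and -0.35 were within the 2-fold limit. Cish, a STAT5-induced inhibitor of cytokine receptors, had log2 signals of 9.93, 9.46 and 10.20, with differences of -0.47 and 0.27. Cish was thus measured above the ERCC limit on every array without passing the 2-fold limit in either Tl group.

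Of 8 listed SOCS family genes, 7 were measured, and Socs3 was the 1 over 2-fold higher at each time, with 0 lower. The remaining 6 differed from control by -0.55 to 0.72. The median log2 difference was 0.20 at both times. Of 8 measured genes of other JAK-STAT inhibitors, 0 passed the limit in either group. The phosphatase genes Ptpn1 and Ptpn2, whose products act on Janus kinases and STATs, differed by 0.89 and 0.89 at 2 days and by 0.98 and 0.74 at 5 days. Ptpn6, a phosphatase gene of blood cells, differed by 0.94 and 0.13.

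STAT dimers bind the palindrome TTCNNNGAA, which reads the same on both strands, so its letters were sought in the 250 bases before the annotated start of each gene. The RefSeq promoter table (build GRCr8) held windows for 8 of the 10 genes. The windows of Il6, Socs1 and Cish began at the outermost start of the gene, and those of Il6r, Il6st, Osmr, Stat3 and Socs3 began at a start further inside it. Among all 33469 windows of the table, 7.67% held the palindrome. Cish held 4 matches, starting 241, 230, 136 and 119 bases before the start, and 2 of all windows held 4 or more. Socs1 held 1 match, and the other 6 windows held 0. The stretches of Cish and Socs1 are shown because these inhibitors carried the letters but did not pass the 2-fold limit. Socs1 was dim on every array, so a small difference in it could not be told from none. Of 24 genes with a window on the list of IL-6 and STAT3 response genes described later, 7 held the palindrome. These were 4 of the 13 that were over 2-fold higher in at least 1 Tl group (Fga, Fgb, Serpina3n and Icam1) and 3 of the 11 that were not (Hamp, Reg3b and Bcl2l1). The matching windows of Icam1 and Bcl2l1 began inside the gene. Bcl2l1 had several windows and was counted if any held a match. These counts are thus per gene, whereas the 7.67% is per window. Lcn2 and Timp1, which were among the 6 genes of that list with the largest differences, held 0, in windows that began inside the gene. The stretches of Fga, Fgb and Serpina3n were picked after their values were seen, as examples of a match at an acute phase gene that was higher, and do not represent the list. They are printed in lower case with the matches in capitals. The Cish stretch is chr8:116850719-116850868 on the plus strand, that of Socs1 is chr10:5389354-5389413 on the plus strand, that of Fga is chr2:170671919-170671978 on the plus strand, that of Fgb is chr2:170701066-170701125 on the minus strand, and that of Serpina3n is chr6:129088242-129088301 on the plus strand.
Cish: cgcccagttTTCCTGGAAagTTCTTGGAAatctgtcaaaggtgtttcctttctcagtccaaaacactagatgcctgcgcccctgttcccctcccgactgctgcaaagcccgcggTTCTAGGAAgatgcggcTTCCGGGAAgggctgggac
Socs1: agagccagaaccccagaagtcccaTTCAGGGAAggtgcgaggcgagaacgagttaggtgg
Fga: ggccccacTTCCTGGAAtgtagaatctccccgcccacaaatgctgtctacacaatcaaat
Fgb: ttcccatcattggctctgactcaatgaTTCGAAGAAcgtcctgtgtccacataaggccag
Serpina3n: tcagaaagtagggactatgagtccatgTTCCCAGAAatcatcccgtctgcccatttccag
A match is a description of these letters and not a bound site.

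In a direct comparison of the Tl groups, which does not use the control values, 2 of the 10 genes were over 2-fold lower at 5 days than at 2 days, against 3.07% of all genes, and 0 were over 2-fold higher, against 2.21%. The 2 were Lif, 7.99-fold lower at a log2 difference of -3.00, and Socs3, 5.42-fold lower at -2.44. Both were above the ERCC limit on both arrays, and they ranked 31 and 68 from the lowest among all genes. Osmr, Stat3 and Il6st were lower as well, at -0.88, -0.57 and -0.39, but within the 2-fold limit. Cish was the gene with the largest positive difference, at 0.74. All 5 genes that were over 2-fold higher than control in a Tl group had the larger difference at 2 days. Of the 1223 genes of the whole table that were over 2-fold higher in at least 1 Tl group, 53.7% did. Relative to the log2 difference from control at 2 days, the difference at 5 days was 66.8% for Stat3, 70.1% for Il6st and 76.8% for Osmr. For Lif and Socs3, whose control values were dim, this share depends on the value they are measured from. It was 46.4% for Lif and 55.5% for Socs3 from the control values, and 22.1% and 33.4% from the ERCC limit.

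Genes with the most similar pattern were sought as those nearest in the plane of both log2 differences from control, over 3 arrays. The nearest genes to Lif were Pbk at a distance of 0.15, Socs3 at 0.46 and Ccna2 at 0.63. The nearest to Socs3 were Lif at 0.46, Pbk at 0.50 and Vtcn1 at 0.72. Lif and Socs3 were thus among each other's 3 nearest genes, and the control values of all of these were dim, at 3.25 for Pbk, 5.91 for Ccna2 and 4.84 for Vtcn1. Osmr was nearest to Anxa2 at 0.14, Ctsd at 0.24 and Slc25a24 at 0.35. Stat3 was nearest to Wdr77 at 0.02, Map4k4 at 0.07 and Srm at 0.09, and Il6st to Kctd10 at 0.04, Lrrfip1 at 0.06 and Cct4 at 0.06. With 3 arrays, such distances describe these arrays and no more.

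Genes known to respond to IL-6 or STAT3 were then examined as a list of 32, all of which were measured. At 2 days 16 of them were over 2-fold higher than control, against 6.03% of all genes, and 0 were lower. At 5 days 14 were higher, against 5.37%, and 1 was lower. The list was chosen with earlier results of these data known, and it includes Lcn2 and Myc, which the study itself reports as increased. The shares of all genes are thus not an independent standard for these counts. The median log2 differences were 0.93 and 0.82, and 13 genes were over 2-fold higher at both times. The 6 with the largest differences were Lcn2, Fga, Fgb, Serpina3n, Myc and Timp1. Of these 6, Fga was above the ERCC limit on the control array, at 8.11, and the control values of the other 5 were dim, so their differences depend on the value they are measured from. Lcn2, an iron-siderophore binding protein of the acute phase, differed by 7.89 and 8.45. The fibrinogen chain genes Fga and Fgb differed by 7.65 and 6.73 at 2 days and by 5.23 and 4.15 at 5 days. The third chain gene Fgg, named after its values were seen and dim in the control group, differed by 2.42 and 1.22. Serpina3n, a protease inhibitor, differed by 6.18 and 5.45, and Timp1, an inhibitor of matrix proteases, by 3.66 and 1.71. Measured from the ERCC limit, the differences at 2 and 5 days were 6.54 and 7.09 for Lcn2, 5.13 and 2.54 for Fgb, 5.46 and 4.72 for Serpina3n, and 4.25 and 3.91 for Myc. Fga then had the largest difference at 2 days. With the same floor Timp1 was at 2.31 and 0.35 and Fgg at 0.88 and 0.00, so Timp1 at 5 days and Fgg at both times no longer passed the 2-fold limit.

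Other genes of this list did not pass the limit. The acute phase genes Hp, Hpx, Orm1, Crp and Serpina1, named after their values were seen, differed by 0.00, -0.18, -0.55, -0.77 and -0.82 at 2 days. All 5 were dim on every array, with Serpina1 at 6.49, 5.66 and 6.41. Pim1, a kinase gene that STAT3 and STAT5 induce, and the genes that follow were also named after their values were seen. Pim1 differed by 0.16 and 0.00. The gene over 2-fold lower was Ccnd1, which encodes cyclin D1, at -0.54 and -1.94. Of the 17 genes over 2-fold higher in at least 1 Tl group, 12 had the larger difference at 2 days. Junb, Ccl2 and Bcl3 passed the limit at that time alone, with 2.68, 3.09 and 1.60 against 0.89, 0.62 and 0.69 at 5 days. Cebpb passed it at 5 days, at 0.77 and 1.55, with all 3 of its values dim. Bcl3 was dim in the control group, and from the ERCC limit it was at 0.01 at 2 days. Many of these genes answer to other signals too, and 20 of the 32 were dim on the control array. With dim values raised to the ERCC limit, 13 genes were over 2-fold higher at 2 days and 9 at 5 days.

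**Figure D3:**
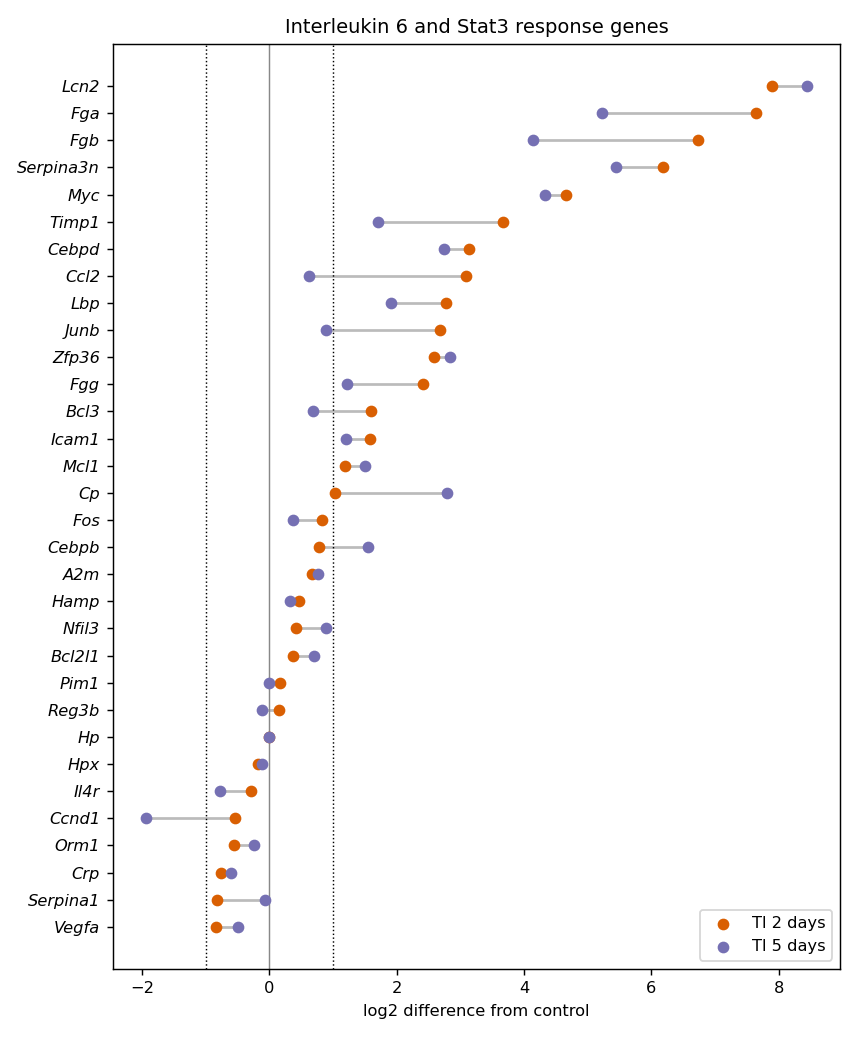
Log2 difference from control of each of the 32 IL-6 and Stat3 response genes in the Tl 2 days (orange) and Tl 5 days (purple) groups, in order of the former, with dotted lines at 2-fold. The genes from Lcn2 down to Cp pass 2-fold at 2 days, and Ccnd1 lies below -1 at 5 days.

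Since Socs2 and Cish are known as targets of growth hormone and STAT5, 8 genes linked to that branch were compared as well. Socs2 and Cish themselves were within the 2-fold limit in both Tl groups. The 8 include receptor genes along with other genes, so a count over them is not a measure of STAT5 activity, which was not tested. In each Tl group 5 of the 8 were over 2-fold lower than control and 0 were higher, with median log2 differences of -1.49 and -1.41. Of all genes, 4.65% were over 2-fold lower at 2 days and 4.87% at 5 days. The 5 lower genes were the growth hormone receptor gene Ghr (-1.64 and -1.71), the prolactin receptor gene Prlr (-2.14 and -4.16), Igf1 (-1.33 and -2.50), Igfbp3 (-1.71 and -1.11) and the transcriptional repressor gene Bcl6 (-1.91 and -2.35). The other 3 genes, Epor, Igfals and Onecut1, the first and last of them named after their values were seen, were dim on every array. Igf1 had log2 signals of 9.06, 7.73 and 6.57 and Ghr had 14.14, 12.49 and 12.43 on the control, Tl 2 days and Tl 5 days arrays. Igf1 at 5 days and Igfbp3 at 2 days, at 6.52, were dim. With dim values raised to the ERCC limit, 5 of the 8 were still over 2-fold lower at each time. In bulk RNA of a tissue, fewer cells of a type and less RNA per cell cannot be told apart.

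**Figure D4:**
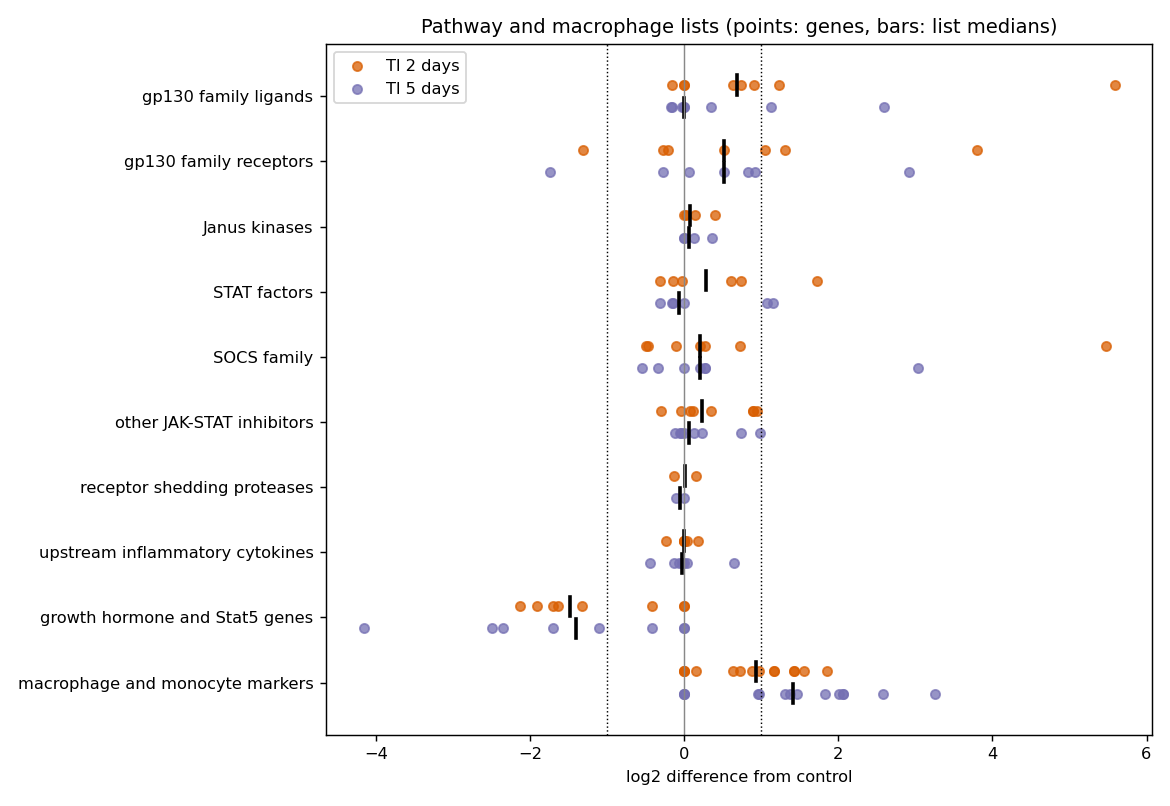
Log2 difference from control of each measured gene (points) and the median (black bars) of the lists of the pathway and of macrophage markers, for the Tl 2 days (orange) and Tl 5 days (purple) groups, with dotted lines at 2-fold. At 2 days the points furthest to the right are Lif, Socs3 and Osmr. At 5 days the macrophage marker Mrc1, at 3.25, lies further right than these genes. The Janus kinases stay within 0.39 of the control group, and 5 growth hormone and Stat5 genes lie below -1 at each time.

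Markers of cells that can make or receive these cytokines moved as follows. For comparison, 6.03% of all genes were over 2-fold higher and 4.65% lower at 2 days, and 5.37% and 4.87% at 5 days. Of 14 macrophage and monocyte markers, 6 were over 2-fold higher at 2 days and 9 at 5 days, with 0 lower at either time and median log2 differences of 0.92 and 1.42. Of the 14, 11 were dim on the control array, and with dim values raised to the ERCC limit 3 were over 2-fold higher at 2 days and 5 at 5 days. The summed signal of the list was 15.78, 16.51 and 17.83 on the log2 scale on the control, Tl 2 days and Tl 5 days arrays. From 98.0% to 98.7% of it came from Lyz2, a lysozyme gene. Without Lyz2 the sum of the other 13 was 9.87, 10.88 and 11.55. Mrc1, the mannose receptor of macrophages, differed by 1.42 and 3.25, and Cd14 differed by 0.88 and 2.58. The defining markers Cd163, Adgre1 and Marco, named after their values were seen, were dim and had the same value on all arrays. Between the Tl arrays, the macrophage list had a median difference of 0.46 at 5 days against 2 days. Of the 14 markers, 4 were over 2-fold higher, against 2.21% of all genes, and 0 were lower. The other 10 were within the limit, down to -0.54 for Cx3cr1. All 7 measured neutrophil markers were dim on every array, with S100a8 and S100a9 higher by 1.46 and 1.28 at 5 days. The 9 endothelial markers had medians of -0.27 and -0.57, with 0 over 2-fold higher at either time and 0 and 3 lower at 2 and 5 days. The 8 fibroblast and mesangial markers had medians of 0.77 and 0.12, with 2 and 1 higher and 0 lower. The medians of the 14 proximal tubule markers were -0.55 and 0.07. Of these, 5 were lower and 0 higher at 2 days, whereas 4 were higher and 2 lower at 5 days, when they ranged from -5.63 for Kap to 3.07 for Slc5a12. The part of any of these cells in the differences of the 10 genes was not tested.

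Upstream inflammatory cytokines had mostly dim signals, at which a small difference could not be told from none. Of Il1a, Il1b, Tnf, Il10, Il18, Il17a and Ifng, 0 of 7 were over 2-fold higher or lower in either Tl group, and 6 of the 7 were dim on every array. Il18 was the exception, with log2 signals of 6.46, 6.63 and 7.11.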

How the data were processed

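The study measured kidney RNA on 3 Clariom S arrays, grouped here by their titles. The authors deposited log2 signals by probe set, obtained with Transcriptome Analysis Console. Its version, summarization and normalization are not given in the sources used here, and base 2 was taken because powers of 2 of the column differences come close to folds of single genes in the study's text. Of 24834 probe sets, 15049 had a single gene symbol and 9785 were not named here. Several probe sets of 1 gene were averaged (10 genes), leaving 15037 genes. The symbols of all 10 genes matched RefSeq (GRCr8) by gene ID.

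Differences of log2 values were computed between arrays. With 1 array per group no test was possible, and precision is limited by this number. The counting of genes past the limit was tested on simulated data with known shifts. The simulated noise was far smaller than the shifts, so this checked the counting and not the precision of the arrays. On the real arrays, the standard deviation of the differences of negative control probe sets was 0.86 at 2 days and 0.88 at 5 days against control. The genes and the 17 gene lists were chosen with earlier results of these data known. All 10 genes and any gene of the gp130, Janus kinase, STAT, SOCS, inhibitor and protease lists could be named. From the other lists, up to 6 genes with the largest absolute difference were named, and the 3 nearest genes in pattern. Further genes of those lists were chosen after their values were seen or for their promoter match, and the upstream cytokines and the growth hormone and Stat5 genes were named in full. The results were recomputed after quantile normalization, after centring the arrays on their gene medians, with low values raised to the 20th percentile, without genes under the 40th percentile, with fold limits of 1.5 and 3, and with the probe set with the highest mean. A floor at the ERCC limit was added after seeing the data. Computation used Python 3.11.15 with pandas 2.3.3 and numpy 2.4.6, and plots used matplotlib 3.10.9.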

Additional observations from a re-analysis of the deposited data

Results flagged for a closer look

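Socs2 and Cish drew attention because their differences from the control group had opposite signs in the Tl groups. Socs2 differed by 0.27 in the Tl 2 days group and by -0.35 in the Tl 5 days group. Cish differed by -0.47 in the Tl 2 days group and by 0.27 in the Tl 5 days group. All 4 differences were within the 2-fold limit, and whether the Tl groups differ from each other was not tested, as each had 1 array.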

How the results depend on the processing

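The differences of the 10 genes kept within 1.5-fold of the values given under all alternatives but the floor at the ERCC limit, and the numbers over 2-fold higher than control were 5 and 4 under both scalings, the 20th percentile floor, the 40th percentile filter, which left out Il6 and Socs1, and the highest probe set. Each of the 10 genes had 1 probe set, and the filter only left genes out. The highest probe set and the filter thus could not change the difference of any gene kept. The 20th percentile floor changed none of these differences. Centring moved the median of all genes by -0.12 at 2 days and by -0.05 at 5 days. With a fold limit of 1.5, 6 of the 10 genes differed between the Tl groups instead of 2. The filter moved the list medians of the Tl 5 days group to 1.12 (gp130 ligands, 3 genes left), 0.65 (upstream cytokines, 1 gene left) and -2.03 (growth hormone and Stat5 genes, 6 left), and that of the response genes at 2 days to 2.01 (24 left), since it left fewer genes. The floor at the ERCC limit, chosen after seeing the data, gave 5 genes at 2 days and 3 at 5 days, where Lif at 0.85 no longer passed, while Socs3 did at 1.23. In the Tl 2 days group, Lif was then at 3.85 and Socs3 at 3.66, and Il6 at 0.00. It moved the medians of the gp130 ligands at 2 days to 0.00, of the response genes at 5 days to 0.18, and of the macrophage markers to 0.12 and 0.71, because values below the limit were set equal. No paired analysis was possible because each group had 1 array. A dim control value limits the precision of each fold of Lif and Socs3.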
